A study of Mus musculus with 4 samples.

Results

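The genes described here encode the core of the NLRP3 inflammasome and of pyroptosis. They are Nlrp3, Mefv and Aim2 (sensors), Pycard (the adaptor), Casp1 and Casp4 (caspases), and Gsdmd and Ninj1 (executors of cell lysis). They were chosen by name and by no rule on their values, although earlier results of these data were known. Every accessible region that the deposited tables assign to 1 of these 8 genes was taken. This gave 8 of 26614 genes and 33 of 80929 regions. Aim2 had 11 regions, Nlrp3 6, Mefv 5, Gsdmd and Ninj1 3 each, Pycard and Casp4 2 each, and Casp1 1.

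The cells were RAW264.7, an established mouse macrophage-like line, and open chromatin was profiled by ATAC-seq, which uses a transposase to cut and tag accessible DNA. The compared groups were CuNZ@Gel, which the series title presents as a nanozyme hydrogel (2 libraries), and Gel (2 libraries), both after 48 h, with 1000000 cells seeded per well of a 12-well plate and no dose given. The labels name no further agent or genetic change. The groups rest on the sample titles, because all samples share 1 treatment text, which mentions CuNZ@Gel alone and leaves the treatment of the Gel cells unstated. Separate cultures are not mentioned for the replicates, and p-values therefore reflect spread among these libraries that may be technical.

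An inflammasome is a cytosolic complex in which a sensor, on detecting damage or infection, recruits the adaptor ASC (the product of Pycard) and through it caspase-1. Caspase-1 matures the cytokines IL-1 beta and IL-18 and cleaves gasdermin D, whose freed amino-terminal part forms pores in the plasma membrane, after which NINJ1 drives membrane rupture. In macrophages Nlrp3 is a priming-dependent gene whose transcription is induced by NF-kappa-B signalling, and RAW264.7 cells are known for lacking ASC protein.

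Promoter windows of 4 of the genes are shown because they hold a motif of a factor that acts in primed macrophages. Windows run from 250 bases before to 50 after a RefSeq start on build GRCm38.p6, 5′ to 3′ on the gene's strand, and capitals mark the motif matches. RefSeq held 9 windows for 7 of the 8 genes (Gsdmd is named only). The accessible regions have coordinates on GRCm39, another build, so windows and regions were not overlaid. The NF-kappa-B motif (searched by name, both strands) matched the Nlrp3 window at chr11:59541319-59541618 (plus strand), beginning 186 bases before the start. It also matched the Casp4 window at chr9:5308599-5308898 (plus strand), where overlapping matches on both strands begin 93 bases before the start. The PU.1 motif GAGGAAGT (both strands) matched the Aim2 window at chr1:173420354-173420653 (plus strand) and the Pycard window at chr7:127993818-127994117 (minus strand). The Pycard window also held the C/EBP motif TTGCNNAA, and both of its matches read on the opposite strand.
Nlrp3: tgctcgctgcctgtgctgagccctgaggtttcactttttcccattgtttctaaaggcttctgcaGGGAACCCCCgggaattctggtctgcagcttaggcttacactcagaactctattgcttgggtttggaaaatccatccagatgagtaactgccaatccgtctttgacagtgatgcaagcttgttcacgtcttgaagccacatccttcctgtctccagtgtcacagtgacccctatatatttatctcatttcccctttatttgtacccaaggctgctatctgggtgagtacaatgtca
Casp4: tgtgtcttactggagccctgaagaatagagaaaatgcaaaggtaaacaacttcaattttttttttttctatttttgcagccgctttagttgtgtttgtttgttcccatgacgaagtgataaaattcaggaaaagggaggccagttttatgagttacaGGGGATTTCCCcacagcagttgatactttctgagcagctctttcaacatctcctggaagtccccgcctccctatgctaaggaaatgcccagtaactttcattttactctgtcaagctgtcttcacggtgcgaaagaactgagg
Aim2: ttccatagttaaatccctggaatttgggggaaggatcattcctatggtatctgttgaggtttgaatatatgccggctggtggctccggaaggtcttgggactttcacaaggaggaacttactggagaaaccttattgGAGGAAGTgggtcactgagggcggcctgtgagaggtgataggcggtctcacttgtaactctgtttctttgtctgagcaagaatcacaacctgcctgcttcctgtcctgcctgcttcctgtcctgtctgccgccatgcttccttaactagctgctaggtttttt
Pycard: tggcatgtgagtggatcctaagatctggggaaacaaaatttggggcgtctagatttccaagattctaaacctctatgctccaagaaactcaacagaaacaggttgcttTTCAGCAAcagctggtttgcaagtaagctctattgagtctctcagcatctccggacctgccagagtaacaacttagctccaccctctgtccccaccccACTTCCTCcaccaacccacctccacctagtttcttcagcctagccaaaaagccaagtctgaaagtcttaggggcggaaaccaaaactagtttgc

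The NF-kappa-B motif was found in 3 of the 9 windows (both Casp4 windows, which overlap, and 1 Nlrp3 window), against 4.51% of 32851 promoter windows of the same length. PU.1, a lineage factor of macrophages, had a match in 2 of 9 windows, against 3.20% of all windows. C/EBP had a match in 1 of 9, against 10.8%. The AP-1 motif TGANTCA (7.81% of all windows) and the interferon-stimulated response motif (GAAA, any 2 bases, GAAA; 3.44%) matched none of the 9 windows. A match describes letters in a window and is not evidence of binding. The other windows, those of Casp1, Ninj1 and Mefv and the second Nlrp3 window, held none of the 5 motifs.

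The CuNZ@Gel libraries held 7440950 and 10236691 reads in regions, against 18843542 and 17914906 in the Gel libraries. Relative to the background pileup that the peak folds imply, region reads (in units of 1000000) were 6.37 and 8.53 in CuNZ@Gel, against 18.8 and 18.6 in Gel. This gap coincides with the groups and cannot be told apart from them. The macrophage label was checked on 10 marker genes, all of which had regions. Their summed level was 1002 and 1012 RPM in CuNZ@Gel and 1250 and 1260 RPM in Gel, where RPM is reads scaled to 1000000 effective reads. Markers of other cell types had smaller sums. Granulocyte genes summed to 96.2 and 88.0 RPM in CuNZ@Gel and 83.6 and 84.4 RPM in Gel, and fibroblast genes to 90.6 and 84.3 RPM in CuNZ@Gel and 79.4 and 79.6 RPM in Gel. Lymphocyte genes summed to 36.5 and 26.9 RPM in CuNZ@Gel and 31.4 and 34.5 RPM in Gel, and epithelial genes to 12.4 and 17.5 RPM in CuNZ@Gel and 12.1 and 12.9 RPM in Gel. No region was assigned to 2 of the 6 lymphocyte genes (Cd3g and Cd79a), 2 of the 6 fibroblast genes (Col1a2 and Thy1), 2 of the 5 epithelial genes (Krt18 and Krt14) and 1 of the 5 granulocyte genes (Ly6g). The labels name RAW264.7 alone, and the sums cover unlike numbers of genes. They describe regions nearest to marker genes and do not measure other cells, whose presence was not tested.

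Near 2 of the 8 genes, Nlrp3 and Ninj1, 1 region or more was called higher and another lower on the deposited scale. Near Aim2 and Gsdmd regions were called lower alone. Genes with calls in both directions were not counted over the series, so this is not shown to be particular to these genes. In CuNZ@Gel 6 strong regions near Gsdmd, Ninj1, Aim2 and Nlrp3 were called lower on the deposited scale, whereas 3 weaker regions near Nlrp3 and Ninj1 were called higher, the largest rise being 1.81 on the log2 scale. Regions near Pycard, Casp1, Casp4 and Mefv were not called. In a bulk assay, fewer cells with an open region and less opening per cell cannot be told apart. A region or gene is called where limma's test across all features gave a Benjamini-Hochberg adjusted p under 0.05. All 33 regions passed the filter on low values. Of them, 3 (9.09%) were called higher in CuNZ@Gel, against 21.2% of the 77014 regions tested, and 6 (18.2%) were called lower, against 21.9%. The share called lower was near the background and the share called higher was below it. The median log2 change over the 33 regions was -0.07, against -0.00 over all regions tested, and the changes ran from -0.71 to 1.81. The CuNZ@Gel and Gel libraries did not overlap in 19 regions, with 6 regions higher in CuNZ@Gel (33.7% of all regions) and 13 lower (34.6% of all regions).

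Strength separated the called regions by direction. Of the 9 regions with a mean of at least 20 RPM, 6 were called lower and 0 higher, with 0 rises at an unadjusted limma p under 0.05 and 0 by voom on the recovered reads. Of the 24 regions under that level 3 were called higher and 0 lower, with 2 falls at an unadjusted p under 0.05 (Nlrp3 region 2 and Aim2 region 11) and 0 by voom. Among the 62760 regions of the series under that level 24.4% were called higher and 10.1% lower. The strong regions had a median log2 change of -0.56, and the 14254 regions of the series at that level had a median of -0.51, with 73.9% lower and 7.05% higher. After removal of the trend of change with level (cyclic loess over all regions), the 9 strong regions had a median of -0.01. On that scale 6 of the 33 regions were called higher (18.2%, against 18.8% of all regions) and 3 lower (9.09%, against 13.8%). The direction was the same on both scales for 5 called regions: Nlrp3 regions 5 and 6, Ninj1 region 3 and Aim2 regions 2 and 7. With the trend removed, no region near Nlrp3 or Ninj1 was called lower, so calls in both directions near these genes were not kept. Regions are numbered along each chromosome by rising coordinate.

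**Figure D1:**
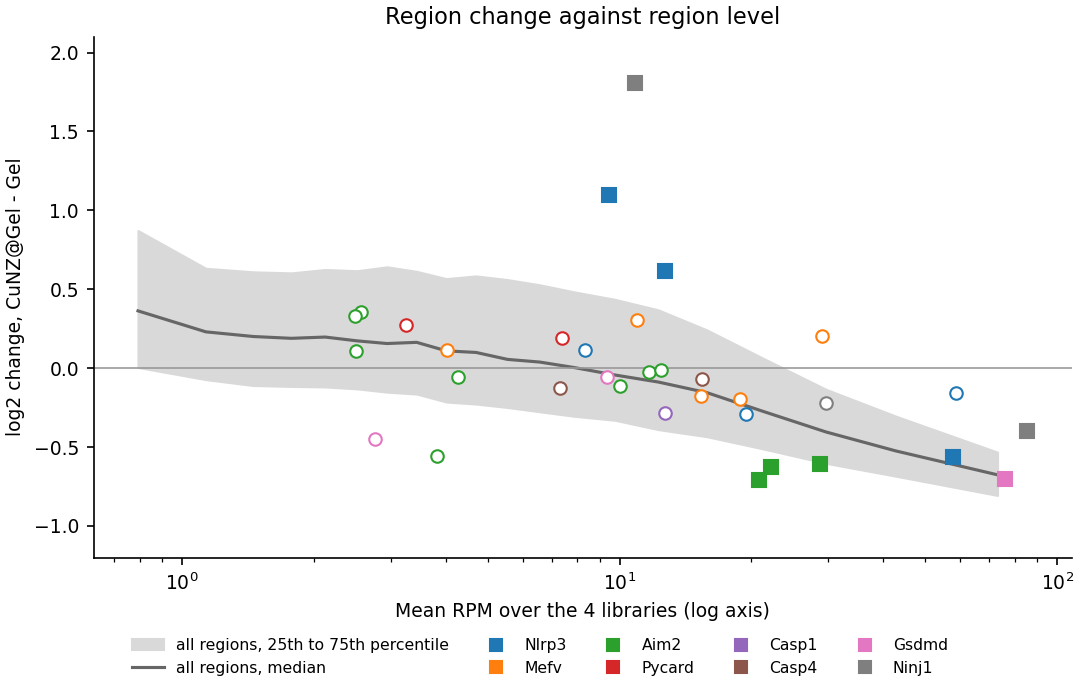
The log2 change of each of the 33 regions (CuNZ@Gel minus Gel, y axis) against its mean RPM over the 4 libraries (x axis, log scale), coloured by gene, with filled squares for regions called on the deposited scale and open circles for the others. The grey line and band give the median and the 25th to 75th percentile of all tested regions in 20 bins of level; Ninj1 region 3 (1.81) and Nlrp3 region 5 (1.09) lie far above the band, and Gsdmd region 1 (-0.70) lies within its trend.

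Nlrp3 encodes the sensor that answers potassium efflux and other signs of cell damage. Its strongest region by the mean over all 4 libraries, region 3 (chr11:59432136-59433876), had 54.8 and 56.2 RPM in CuNZ@Gel and 61.5 and 62.6 RPM in Gel. The 2 CuNZ@Gel libraries were the lower ones and the groups did not overlap, but the change was not called (log2 change -0.16 ± 0.08 SE; adjusted p = 0.124). After removal of the trend this region was called higher, at 0.41 (adjusted p = 4.61e-05), so its direction depends on the scale. Region 1 (chr11:59415990-59418277), the nearest to it in strength, had 45.5 and 47.5 RPM in CuNZ@Gel and 68.1 and 70.4 RPM in Gel. In both Gel libraries it was stronger than region 3. Both CuNZ@Gel libraries lay below both Gel libraries, a log2 change of -0.56 ± 0.08 (adjusted p = 2.24e-07), which became -0.01 (adjusted p = 0.961) with the trend removed.

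Towards higher coordinates, a pair of weaker Nlrp3 regions rose in CuNZ@Gel. Region 5 (chr11:59434625-59435131) had 11.4 and 15.2 RPM in CuNZ@Gel and 5.89 and 5.39 RPM in Gel. These values rest on 94 and 171 reads in CuNZ@Gel and 101 and 87 reads in Gel. Every CuNZ@Gel value exceeded every Gel value, and the rise was 1.09 ± 0.18 (adjusted p = 1.29e-06), with 1.07 after the trend was removed. The authors called a peak there in CuNZ@Gel replicate 2 alone. Regions are the union of peaks called from the same reads, so the presence of such a region in the table is not independent of its level in that library. It lay 170 bases beyond region 4, a region of 7.64 and 9.86 RPM in CuNZ@Gel and 8.16 and 7.74 RPM in Gel, whose groups overlapped. Region 4 in turn lay 98 bases beyond region 3, so 3 adjoining regions had changes of -0.16, 0.11 and 1.09.

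Region 6 of Nlrp3 (chr11:59445086-59445802), whose centre lay 12.4 kb from that of region 3, had a peak in all 4 libraries. It had 16.9 and 14.3 RPM in CuNZ@Gel and 8.98 and 10.6 RPM in Gel, without overlap between the groups. The rise was 0.62 ± 0.16 (adjusted p = 0.000974), and 0.68 (adjusted p = 0.000229) with the trend removed. Region 2 had 19.2 and 15.7 RPM in CuNZ@Gel and 23.2 and 19.7 RPM in Gel and was not called (-0.29 ± 0.13; adjusted p = 0.0765). Summed over its 6 regions, Nlrp3 had 155 and 159 RPM in CuNZ@Gel and 176 and 176 RPM in Gel. The sum was called lower by a small margin (-0.16 ± 0.05; adjusted p = 0.00711), and with the trend removed it was called higher (0.26; adjusted p = 6.63e-05). It lost its call without Gel replicate 1 (-0.17; adjusted p = 0.0561) and without Gel replicate 2 (-0.16; adjusted p = 0.0652), and with median-of-ratios factors (-0.03; adjusted p = 0.621). With totals of reads in regions it was called higher (0.12; adjusted p = 0.0418).

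Mefv encodes the inflammasome sensor pyrin. None of its 5 regions was called on the deposited scale. The strongest, region 5 (chr16:3540953-3541944), had 28.5 and 33.8 RPM in CuNZ@Gel and 27.8 and 25.8 RPM in Gel. The CuNZ@Gel libraries were the higher ones without overlap, at 0.21 ± 0.11 (adjusted p = 0.142), and without CuNZ@Gel replicate 1 the region was called (0.33; adjusted p = 0.0256). Once the trend was removed it was called higher, at 0.54 (adjusted p = 4.78e-05). Of all regions with at least 20 RPM, 73.9% were called lower in CuNZ@Gel. The other Mefv regions changed by -0.20 to 0.30. The sum was 72.5 and 86.5 RPM in CuNZ@Gel and 77.5 and 76.1 RPM in Gel, so both Gel values lay inside the range of CuNZ@Gel (0.04 ± 0.08; adjusted p = 0.659).

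Aim2 encodes the sensor of cytosolic double-stranded DNA, and its regions fell or did not pass the test. Region 7 (chr1:173254812-173255381) had 15.4 and 15.6 RPM in CuNZ@Gel and 25.8 and 26.3 RPM in Gel. The libraries of each group were close together and the groups were far apart, with a change of -0.71 ± 0.13 (adjusted p = 6.06e-06). The strongest region, region 5 (chr1:173247782-173248680), had 21.7 and 23.2 RPM in CuNZ@Gel and 38.7 and 31.0 RPM in Gel, lower in both CuNZ@Gel libraries (-0.60 ± 0.12; adjusted p = 2.23e-05). Region 2 (chr1:173236616-173237237) had 14.4 and 20.2 RPM in CuNZ@Gel and 24.5 and 29.5 RPM in Gel, again without overlap (-0.63 ± 0.13; adjusted p = 0.00012). With the trend removed, region 7 (-0.49; adjusted p = 0.00149) and region 2 (-0.38; adjusted p = 0.0156) were still called lower, and region 5 missed the threshold (-0.28; adjusted p = 0.0544).

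The other 8 Aim2 regions, with 1.46 to 13.2 RPM in single libraries, were not called, and their changes ran from -0.56 to 0.36. The lowest of these, region 11, had 2.18 and 3.73 RPM in CuNZ@Gel and 4.96 and 4.46 RPM in Gel (-0.56 ± 0.24; adjusted p = 0.0589). It had peaks in both Gel libraries and in neither CuNZ@Gel library, and was called lower with the trend removed (-0.71; adjusted p = 0.016). Because Gel peaks alone brought region 11 into the table, its place there is not independent of its level in Gel. Over all 11 regions Aim2 summed to 98.5 and 110 RPM in CuNZ@Gel and 139 and 138 RPM in Gel. This sum was called lower on the deposited scale (-0.41 ± 0.06; adjusted p = 1.16e-05) and with the trend removed (-0.26; adjusted p = 0.000756). Aim2 was the only 1 of the 8 genes with a sum called lower on both, but it was not called with totals of reads in regions (-0.12; adjusted p = 0.0875) or as the mean of region log2 values (-0.17; adjusted p = 0.221).

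**Figure D2:**
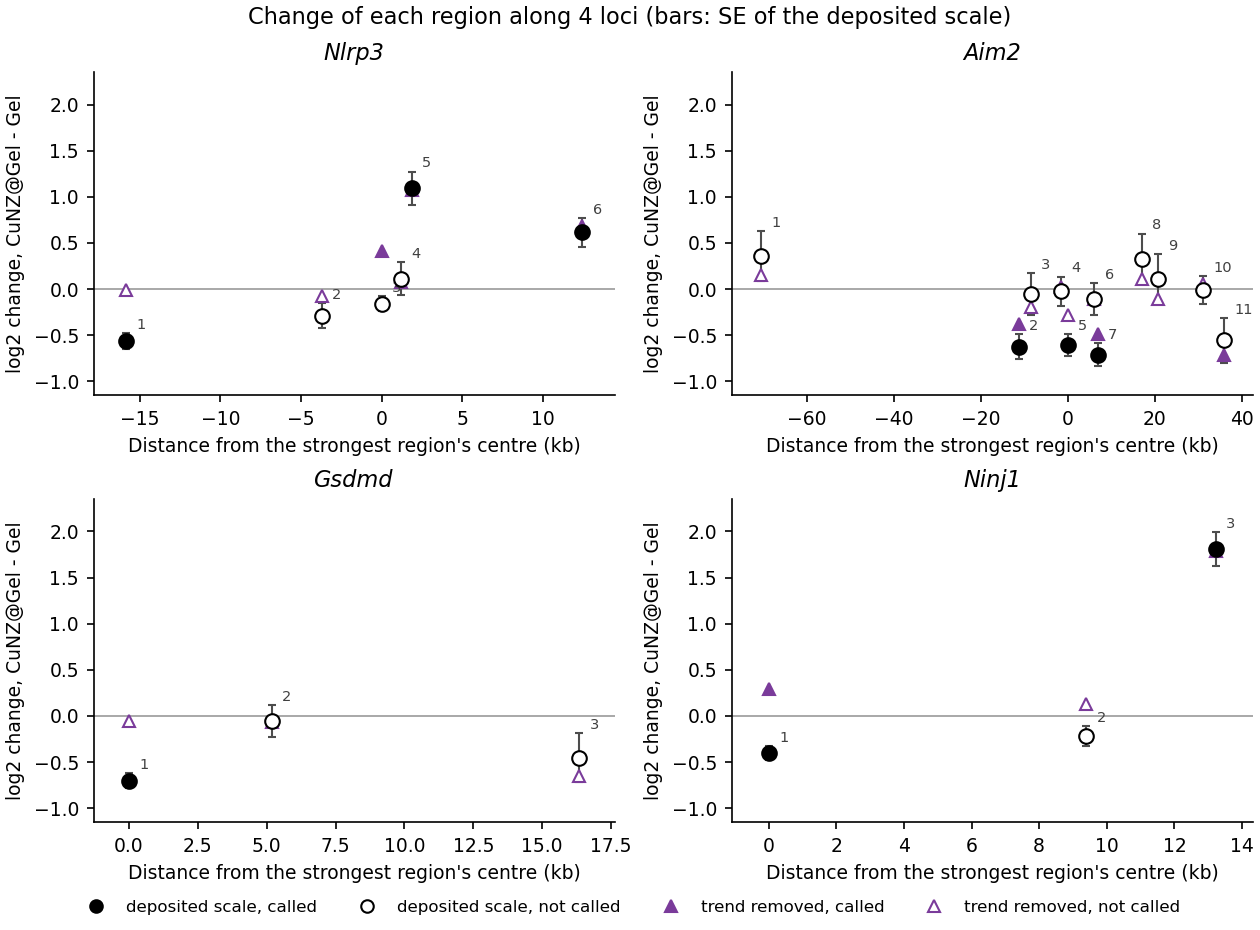
The log2 change (CuNZ@Gel minus Gel, y axis) of each numbered region against the distance of its centre from the centre of the gene's strongest region (x axis, kb) for Nlrp3, Aim2, Gsdmd and Ninj1. Circles give the deposited scale with the SE as bars and triangles the scale with the trend removed, filled where called; Nlrp3 region 5 and Ninj1 region 3 keep their rise (1.07 and 1.79) on that scale, while Gsdmd region 1 goes to -0.06.

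Pycard, which encodes the adaptor ASC, had the lowest mean RPM per kb of the 8 genes, although it overlapped with Casp1 in CuNZ@Gel. Region 2 (chr7:127590728-127591587) had 9.09 and 6.84 RPM in CuNZ@Gel and 7.35 and 6.25 RPM in Gel. Region 1 (chr7:127582402-127583027) had 4.85 and 2.58 RPM in CuNZ@Gel and 2.80 and 2.78 RPM in Gel. The groups overlapped in both regions and neither was called (0.19 ± 0.19, adjusted p = 0.45, and 0.27 ± 0.26, adjusted p = 0.43). The sum was 13.9 and 9.42 RPM in CuNZ@Gel and 10.2 and 9.03 RPM in Gel (0.24 ± 0.18; adjusted p = 0.274). CuNZ@Gel replicate 1 alone lay above the other libraries, and leaving out CuNZ@Gel replicate 2 gave a call (0.50; adjusted p = 0.0307).

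Casp1 and Casp4, which encode the inflammatory caspases (mouse Casp4 is caspase-11, the receptor of cytosolic lipopolysaccharide), lie side by side on chromosome 9, with 9289 bases between the Casp1 region and the first Casp4 region. The Casp1 region (chr9:5298139-5299272) had 10.6 and 12.2 RPM in CuNZ@Gel and 14.0 and 14.1 RPM in Gel. Both CuNZ@Gel libraries were lower, but the change of -0.29 ± 0.15 did not pass the test (adjusted p = 0.128). Casp4 region 1 (chr9:5308562-5309645) had 13.7 and 16.4 RPM in CuNZ@Gel and 15.7 and 15.8 RPM in Gel, with both Gel values inside the range of CuNZ@Gel (-0.07 ± 0.14; adjusted p = 0.753). Casp4 region 2 (chr9:5311467-5312008) also overlapped between the groups, with 6.06 and 7.82 RPM in CuNZ@Gel and 7.23 and 8.04 RPM in Gel (-0.13 ± 0.19; adjusted p = 0.634). None of the 3 regions was called with the trend removed either. The SE of these changes was 0.14 to 0.19, so at this depth a change as large as that of Casp1 (-0.29) could go uncalled.

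Gsdmd encodes gasdermin D, the pore former that the inflammatory caspases cleave. Its region 1 (chr15:75728585-75729666) held most of its reads, with 56.9 and 58.5 RPM in CuNZ@Gel and 90.2 and 98.7 RPM in Gel. Every CuNZ@Gel value lay far below every Gel value, and the change of -0.70 ± 0.08 (adjusted p = 1.27e-10) was the strongest fall of the 33 regions by adjusted p. It was -0.06 (adjusted p = 0.608) with the trend removed. The median change of the 3851 strongest regions of the series was -0.68. Region 2 had 10.4 and 7.99 RPM in CuNZ@Gel and 9.10 and 9.97 RPM in Gel, with overlap (-0.05 ± 0.17; adjusted p = 0.84). Region 3 had peaks in both Gel libraries and in neither CuNZ@Gel library, yet its level was not called different (1.58 and 2.84 RPM in CuNZ@Gel, 2.98 and 3.65 RPM in Gel; -0.45 ± 0.27; adjusted p = 0.176). The Gsdmd sum was 68.9 and 69.3 RPM in CuNZ@Gel and 102 and 112 RPM in Gel (-0.63 ± 0.07; adjusted p = 1.88e-07), and -0.08 (adjusted p = 0.362) with the trend removed.

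Ninj1 encodes ninjurin-1, whose clustering ruptures the plasma membrane of dying cells. Its regions moved in opposite directions on the deposited scale, whereas with the trend removed none of them fell. Region 3 (chr13:49354032-49354503) had 16.1 and 18.6 RPM in CuNZ@Gel and 3.50 and 5.08 RPM in Gel. These values rest on 133 and 209 reads in CuNZ@Gel and 60 and 82 reads in Gel. The CuNZ@Gel libraries were the higher ones by a wide margin, and the rise of 1.81 ± 0.18 (adjusted p = 7.09e-12) was the largest of the 33 regions. It was 1.79 (adjusted p = 4.46e-15) with the trend removed. Peaks were called there only in the CuNZ@Gel libraries, with the authors' fold enrichment at 3.88 and 3.98, so the region's place in the table is not independent of its level in that group.

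Region 1 of Ninj1 (chr13:49340281-49341807), the strongest of the 33 regions by mean RPM over the 4 libraries (not per kb, where Gsdmd region 1 was higher), had 68.4 and 78.8 RPM in CuNZ@Gel and 97.4 and 96.9 RPM in Gel. Both CuNZ@Gel libraries were lower, and the region was called lower (-0.40 ± 0.07; adjusted p = 1.63e-05). With the trend removed it was called higher, at 0.29 (adjusted p = 0.00122). Its fall was smaller than the median of the 3851 strongest regions (-0.68). Region 2 (chr13:49349963-49350917) had 28.2 and 26.2 RPM in CuNZ@Gel and 32.5 and 31.3 RPM in Gel and was not called (-0.22 ± 0.11; adjusted p = 0.0989). The sum over the 3 regions, 113 and 124 RPM in CuNZ@Gel and 133 and 133 RPM in Gel, was called lower (-0.17 ± 0.06; adjusted p = 0.0159), and higher with the trend removed (0.38; adjusted p = 2.95e-06). The sum was not called without CuNZ@Gel replicate 1 (-0.11; adjusted p = 0.127), without Gel replicate 1 (-0.17; adjusted p = 0.0777) or without Gel replicate 2 (-0.17; adjusted p = 0.0753). Nor was it called with median-of-ratios factors (-0.04; adjusted p = 0.584), with totals of reads in regions (0.11; adjusted p = 0.119) or after thinning to equal depth (-0.15; adjusted p = 0.0653).

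By gene, 4 of the 8 sums were called lower (Nlrp3, Aim2, Gsdmd and Ninj1) against 36.1% of the 25900 genes tested, and 0 were called higher against 20.5%. At an unadjusted limma p under 0.05 and by voom the number higher was also 0. The median over the 8 genes was -0.17, against -0.10 over all genes tested. With the trend removed, 3 genes were called higher (Nlrp3, Mefv and Ninj1), against 20.5% of genes, and 1 lower (Aim2), against 16.4%. Scaling to that background pileup moved the median of all genes by -0.95 and that of all regions by -0.81. On that scale all 8 sums were called lower, from -0.73 (Pycard) to -1.67 (Gsdmd), against 75.5% of genes lower and 2.77% higher. By region, 27 of 33 were called lower (60.6% of all regions) and 1 higher (4.85% of all regions). The 1 higher region was Ninj1 region 3, at 0.87 (adjusted p = 0.00209); Nlrp3 region 5 was at 0.15 (adjusted p = 0.613) and Nlrp3 region 6 at -0.36 (adjusted p = 0.213).

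Levels were compared between genes as RPM per kb of summed regions. In CuNZ@Gel Ninj1 was highest, with 38.2 and 41.8 RPM per kb, followed by Gsdmd with 31.5 and 31.7, Nlrp3 with 24.8 and 25.4, and Mefv with 22.2 and 26.5. Aim2 (17.6 and 19.7), Casp4 (12.2 and 14.9), Casp1 (9.30 and 10.7) and Pycard (9.38 and 6.34 RPM per kb) came next in CuNZ@Gel. The neighbours Nlrp3 and Mefv, and Casp1 and Pycard, overlapped in CuNZ@Gel. In Gel the order was Gsdmd (46.8 and 51.4), Ninj1 (45.2 and 45.1), Nlrp3 (28.1 and 28.2), Aim2 (24.8 and 24.7), Mefv (23.7 and 23.3), Casp4 (14.1 and 14.7), Casp1 (12.3 and 12.4) and Pycard (6.83 and 6.08 RPM per kb). No neighbours overlapped in Gel. By this measure the executors stood in opposite order: the level of Gsdmd over that of Ninj1 was 0.825 and 0.758 in CuNZ@Gel and 1.04 and 1.14 in Gel. That order depends on which regions enter the sums, among them Ninj1 region 3, with peaks in CuNZ@Gel alone. By strongest region, Gsdmd led in both groups. Region 1 of Gsdmd had a mean of 53.3 RPM per kb in CuNZ@Gel and 87.3 in Gel. Region 1 of Ninj1 had 48.2 in CuNZ@Gel and 63.6 in Gel. The sensors Mefv and Aim2 also changed places.

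**Figure D3:**
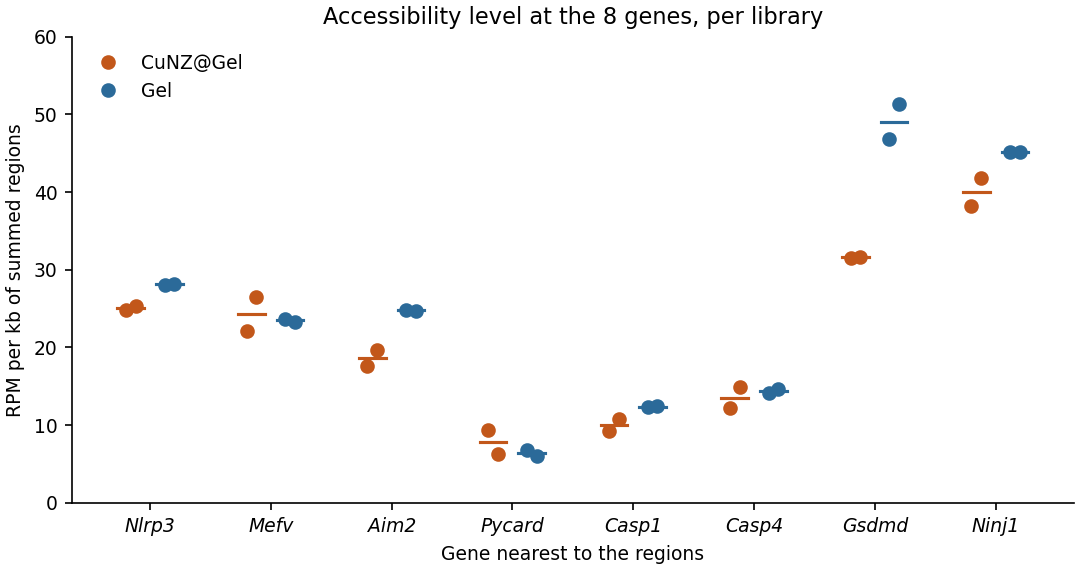
Accessibility level of each gene in RPM per kb of its summed regions (y axis), with 1 point per library and a bar at the group mean (n = 2 each), CuNZ@Gel left and Gel right. Gsdmd stands at 31.5 and 31.7 in CuNZ@Gel and at 46.8 and 51.4 in Gel, while Pycard, Casp4 and Mefv overlap between the groups.

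Ratios within a library do not depend on its scaling factor. Each of the other 25 regions of the 7 genes with more than 1 region was set against the strongest region of its gene in the same library. In 11 of them the share was higher in both CuNZ@Gel libraries than in both Gel libraries, in 3 it was lower and in 11 the groups overlapped. Ninj1 region 3 reached 23.6% of region 1 in each CuNZ@Gel library, against 3.59% and 5.24% in the Gel libraries. Nlrp3 region 5 was at 20.8% and 27.0% of region 3 in CuNZ@Gel and at 9.59% and 8.61% in Gel, and Nlrp3 region 6 at 30.8% and 25.5% in CuNZ@Gel and 14.6% and 17.0% in Gel. Nlrp3 region 1 went the other way, at 83.0% and 84.6% of region 3 in CuNZ@Gel and 111% and 112% in Gel. The other lower shares were those of Mefv regions 1 and 4. In Aim2, 6 of the 10 shares were higher in CuNZ@Gel, among them region 10 with 54.2% and 56.0% of region 5 in CuNZ@Gel and 33.0% and 39.1% in Gel. Over the series, weak regions tended to rise relative to strong ones, so these shares are not independent of that trend of change with level. The shares of Mefv regions 1 and 4, both weaker than region 5, moved in the other direction. The part of the trend in each share was not tested. The same counts were not taken over all genes, so they do not set these genes apart.

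**Figure D4:**
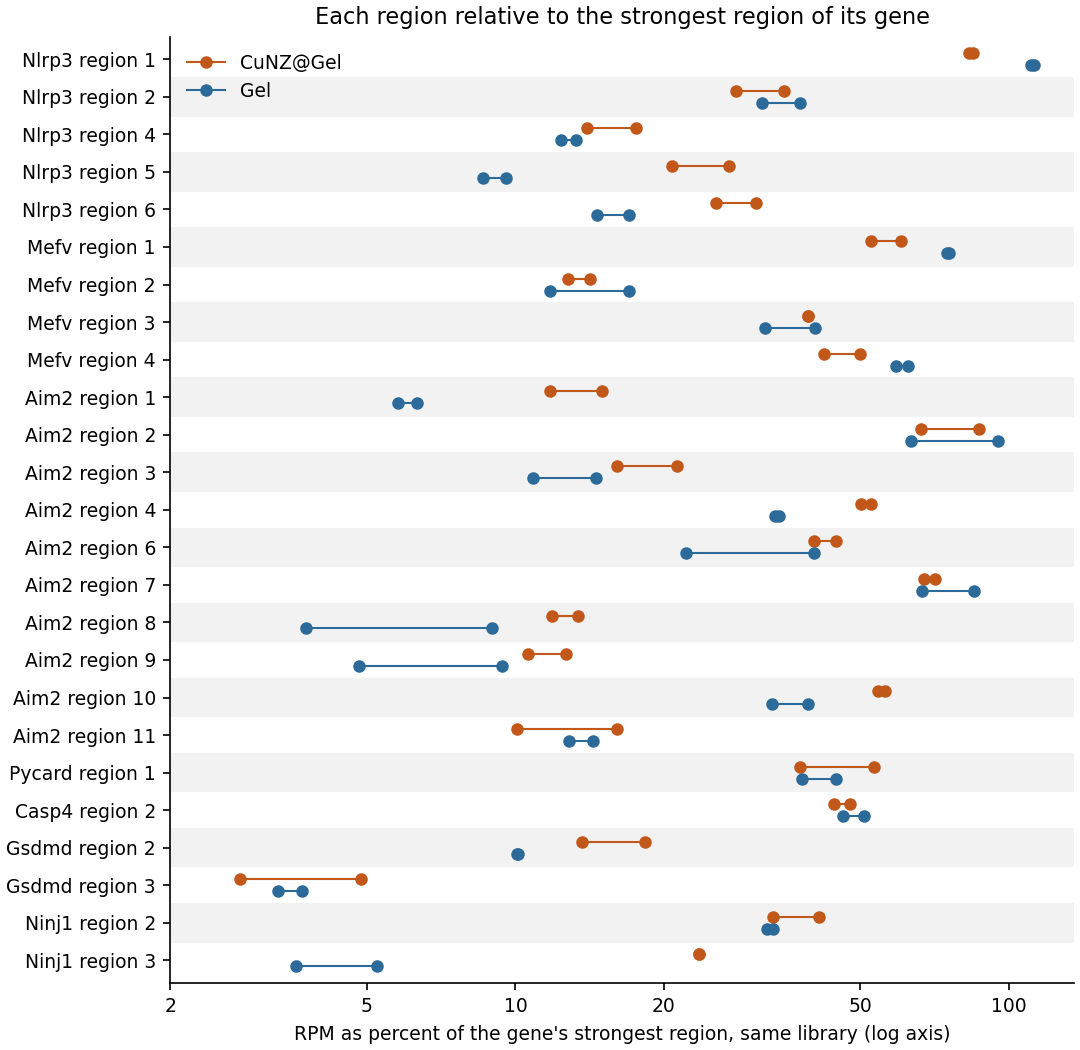
RPM of each region as a percent of the strongest region of its gene in the same library (x axis, log scale), with CuNZ@Gel above Gel in each row and a line joining the 2 libraries of a group. Ninj1 region 3 lies at 23.6% in both CuNZ@Gel libraries and at 3.59% and 5.24% in Gel, and Nlrp3 region 1 is the clearest share that is lower in CuNZ@Gel.

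Peaks were called by the authors on each library alone. Of the 33 regions, 20 (60.6%) had a peak in all 4 libraries, against 39.6% of the 80929 regions of the series. Peaks lay in 24 and 27 of them in CuNZ@Gel and in 28 and 28 in Gel. Aim2 region 11 and Gsdmd region 3 had peaks in both Gel libraries alone, and Ninj1 region 3 in both CuNZ@Gel libraries alone. The CuNZ@Gel lists are shorter over the whole genome (42612 and 53273 peaks, against 61757 and 59251 in Gel), so a missing peak in CuNZ@Gel does not measure a loss.

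The wider pathway was described with 5 lists of 52 other genes, of which 47 had regions that could be tested. Of these, 8 were called higher in CuNZ@Gel, against 20.5% of all genes, and 21 lower, against 36.1% (median -0.16, against -0.10). With the trend removed 11 were higher, against 20.5% of all genes, and 10 lower, against 16.4% (median 0.00). Of the other sensors, 4 of 8 were called higher (20.5% of all genes) and 1 lower (36.1%), and with the trend removed 3 were higher (20.5%) and 1 lower (16.4%). Naip6, a sensor of flagellin, rose by 1.80 ± 0.28 (4.97 and 4.09 RPM in CuNZ@Gel, 0.350 and 0.867 RPM in Gel), and Naip1, a sensor of type III secretion needles, by 1.38 ± 0.11 (41.5 and 38.9 RPM in CuNZ@Gel, 15.2 and 14.5 RPM in Gel). Few reads underlie the Naip6 values in Gel, where 1 read equalled 0.0583 RPM in replicate 1 and 0.0619 RPM in replicate 2. Naip6 passed the filter on low values through the CuNZ@Gel libraries, so its being tested is not independent of its level in that group. The Naip genes are related copies, so reads may be split among them, which was not examined, and their values are uncertain. Nlrc4, the partner through which they signal, fell by 0.26 ± 0.09 (adjusted p = 0.0191).

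Triggers and licensing factors of NLRP3 were called lower in 7 of 12 cases (36.1% of all genes) and higher in 1 (20.5%). With the trend removed 2 were higher (20.5% of all genes) and 3 lower (16.4%). Sugt1, a co-chaperone of NLRP3, fell by 0.84 ± 0.08, and Brcc3, which removes ubiquitin from NLRP3, by 0.83 ± 0.09 (adjusted p = 2.62e-08 and 3.03e-07). Panx1, a large-pore channel, rose by 0.34 ± 0.07, with 82.0 and 79.2 RPM in CuNZ@Gel and 63.5 and 63.0 RPM in Gel. Among priming receptors and transcription factors 7 of 9 were called lower (36.1% of all genes) and 0 higher (20.5%), also 0 at an unadjusted limma p under 0.05 and by voom (3 lower, against 16.4% of all genes, and 0 higher, against 20.5%, with the trend removed). Irf1 fell by 0.88 ± 0.05 (124 and 115 RPM in CuNZ@Gel, 216 and 226 RPM in Gel). Rela, an NF-kappa-B subunit, fell by 0.50 ± 0.07 and was at 0.00 with the trend removed.

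Genes listed as brakes on NLRP3 and on pyroptosis were higher in 3 of 10 cases (20.5% of all genes) and lower in 1 (36.1%). After trend removal 5 were higher (20.5% of all genes) and 1 lower (16.4%). The 5 include Ptpn22 (0.43), whose place among brakes is uncertain, so this is not a count of inhibitors alone. Il18bp, whose product binds and neutralises IL-18, rose by 0.96 ± 0.17 (16.9 and 13.8 RPM in CuNZ@Gel, 6.71 and 8.11 RPM in Gel). Serpinb1a, a serpin that inhibits granule proteases, rose by 0.85 ± 0.14 (18.4 and 17.5 RPM in CuNZ@Gel, 9.28 and 9.84 RPM in Gel). Chmp4b, an ESCRT-III subunit of the membrane repair machinery, fell by 0.66 ± 0.08. Of the products, other gasdermins and other death caspases, 5 of 8 were lower (36.1% of all genes) and 0 higher (20.5%), also 0 at an unadjusted limma p under 0.05 and by voom (1 higher, against 20.5% of all genes, and 2 lower, against 16.4%, with the trend removed). Hmgb1, an alarmin released on lysis, fell by 0.84 ± 0.11 and Casp8 by 0.68 ± 0.07. Of the 13 list genes named here, all but Rela were called in the same direction with the trend removed. On the background pileup scale only Naip6 of them was called higher (1.165; adjusted p = 0.000464), with the limit given above for its Gel reads. On that scale Naip1 (0.36; adjusted p = 0.177), Il18bp (-0.01) and Serpinb1a (-0.14) were not called, and the other 9, Panx1 (-0.70) among them, were called lower.

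Summed levels over the 4 libraries were compared with that of Nlrp3, by Euclidean distance of log2 values, for 25899 other tested genes. Gm, LOC, Rik and accession-like names were then left out. Closest among the rest were Mascrna (0.0430), Cdc14a (0.0572) and Nectin1 (0.0599). Mascrna had 158 and 156 RPM in CuNZ@Gel and 179 and 177 RPM in Gel, next to 155 and 159 RPM for Nlrp3 in CuNZ@Gel and 176 and 176 RPM in Gel. With the trend removed Mascrna and Cdc14a were called higher, at 0.51 and 0.26, as was Nlrp3 (0.26), and Nectin1 was not (0.11; adjusted p = 0.0834). Since these genes were picked for values like those of Nlrp3 in the same libraries, a similar change between the groups largely follows from the choice.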

How the data were processed

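ATAC-seq libraries of RAW264.7 cells, 2 CuNZ@Gel and 2 Gel, were compared. The submitters' processing notes name MACS2 2.2.8, Picard 2.27.5, SAMtools 1.17, Bowtie2 2.3.4.3 and fastp 0.23.1, and build GRCm39, without their roles. For every library the authors deposited log2 values of 80929 regions with a nearest-gene name. Reversing the logarithm gave whole reads (within 0.1) for 100% of low values, so these deposited values were read as log2(RPM + 1), a scale that understates changes of low values. The deposited peak lists give a score, a fold enrichment (ratio over background) and the -log10 of p-values and q-values, used here to describe peaks, to recover the background pileup and to place regions. Merging the lists (bedtools 2.31.1, gap of at most 1 base) gave 80929 regions in the order of the values; of 77103 whose gene is in the RefSeq table, 77097 lay on its chromosome. Coordinates are 1-based. Exons, introns and promoters were not assigned, since no GRCm39 annotation was used.

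Regions, and genes as log2 of summed RPM + 1, were tested two-sided with limma 3.58.1 in R 4.3.3 (trended prior, Benjamini-Hochberg over all features, threshold 0.05). Features needed 10 reads or more, at the median depth, in 2 libraries and 15 reads in total; 4 rows that name no gene were dropped. The procedure was tested on simulated data that held no trend of change with level and no background difference between the groups. That test therefore cannot tell which scaling is right. Alternatives were other scalings, filters, pseudocounts, voom, thinning, the replicate block and leaving out each library. Same-numbered libraries did not deviate together (correlation 0.016 over regions and 0.043 over genes), so the numbers were not taken as pairs. The members, lists and motifs were chosen with earlier results of these data known. Named regions are each gene's strongest, its largest called rise and its largest called fall. Named list genes are the 2 largest called rises and falls of each list. The 3 genes nearest to Nlrp3 in level were taken without Gm, LOC, Rik and accession-like names. The other regions described were chosen after their values were seen.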

Additional observations from a re-analysis of the deposited data

How the results depend on the processing

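Depth limits the weak regions, and 2 libraries per group leave few degrees of freedom; region reads per background pileup differ between the groups, so every count depends on the scaling, and the cause of each change below was not tested. Over 22 regions and gene sums named in the report, 265 of the 316 values under alternatives kept direction and side of the threshold, 16 lost a call, 13 gained one and 22 changed sign, 9 of these without a call on either scale. Filters, the pseudocount of 0.25 and voom on the recovered reads changed no call among them. Nor did the replicate block, under which 3 regions were called higher and 6 lower, and 4 gene sums lower.

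Member regions called higher numbered 5 with totals of reads in regions, 6 with the trend removed and 1 on the background pileup scale, against 3 on the deposited scale; regions called lower numbered 3 once the trend was removed and 27 by background scaling, against 6. Member genes called higher numbered 3 with totals, 3 with the trend removed and 1 with the mean of region log2 values, against 0. Genes called lower numbered 2 with median-of-ratios factors, 1 with totals, 1 after trend removal, 8 by background scaling and 2 with the mean of region values, against 4. Without each library in turn they ranged from 2 (without either Gel library) to 4, and genes called higher from 0 to 1 (Pycard, without CuNZ@Gel replicate 2). Of the 47 list genes, 16 were higher with totals and 1 on the background scale, against 8, and 10 were lower with totals, 10 once the trend was removed and 39 by background scaling, against 21.

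Shares of all features called were not taken with median-of-ratios factors, totals, the mean of region values or single libraries left out. The counts of the preceding paragraph under those settings therefore have no background to be read against. Median-of-ratios factors moved the median of all genes by 0.12. Totals moved it by 0.26 and gave 0.12 for the Nlrp3 sum and 0.11 for the Ninj1 sum. Those sums were 0.26 and 0.38 with the trend removed and 0.14 and 0.40 as the mean of region values. The trend-removed values of Nlrp3 region 3 (0.41) and Ninj1 region 1 (0.29) also changed sign. On the background scale the Mefv sum (-1.0), the Pycard sum (-0.73), Mefv region 5 (-0.82), Pycard region 2 (-0.74) and Nlrp3 region 6 (-0.36) changed sign. Peaks in all 4 libraries lay in 19 of 33 regions under a stricter q-value limit and, likewise, with equally long peak lists, against 20.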
